A study of Mus musculus with 12 samples.

Results

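The genes described here encode 49 enzymes and enzyme subunits of 3 linked routes of carbon metabolism. They were taken by symbol from a table of 32051 genes and comprise 19 genes of glycolysis and lactate formation, 9 genes of the pentose phosphate pathway and of phosphoribosyl pyrophosphate synthesis, and 21 genes of pyruvate entry and the tricarboxylic acid (TCA) cycle. Each symbol matched 1 gene. The list is not the whole of each route, and genes such as those of succinate dehydrogenase, which belong to the cycle, come near the end with other genes of these pathways.

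Messenger RNA was measured by RNA-seq in mouse Th9 cells, the CD4+ T helper cells that secrete IL-9. The labels give splenocytes of the C57BL/6J strain as the source. The study's methods, which give ages of 6 to 8 weeks, name C57BL/6J and CD45.1+ OT-II mice (which carry a T cell receptor transgene) as donors of naive CD4+ T cells without saying which gave the cells sequenced. The naive cells were stimulated through CD3 and CD28 and polarized with IL-4 (10 ng/mL) plus TGF-β (1 ng/mL), with IL-12 and IFN-γ blocked by antibodies, and RNA was taken on day 4. The 4 groups of 3 libraries differed only in what was added to the culture. The DMSO group received the vehicle alone, the EpA group 10 μM endomelipeptide A (EpA), a cyclic lipopeptide from an endophytic fungus, the fatostatin group 5 μM fatostatin, an inhibitor of the SREBP transcription factors, and the last group both compounds at these doses. The comparisons ask how each compound, alone and on top of the other, moved the enzyme genes. The labels number the replicates without saying whether they came from separate mice or cultures, so the p-values measure only the spread between these libraries.

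Glycolysis splits glucose into pyruvate in the cytosol, and lactate dehydrogenase turns pyruvate into lactate while restoring NAD+. The pentose phosphate pathway branches off glucose 6-phosphate, makes NADPH in its oxidative steps and yields ribose 5-phosphate, and phosphoribosyl pyrophosphate synthetase passes this ribose on to nucleotide synthesis. Pyruvate that enters mitochondria is oxidized in the TCA cycle or carboxylated to oxaloacetate. Activated T cells are known for a strong rise of glycolysis, and the cycle also supplies them with citrate and with precursors of amino acids.

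Values are FPKM (fragments scaled by exon length and by library depth), as the authors deposited them. The FPKM steps give 36019739 to 43656682 reads on genes per library, which put 109 to 138651 reads behind each value of a member in a library. limma compared the groups on a log2 scale, after 0.1 was added to each FPKM, in 13733 genes that averaged 0.1 FPKM or more, all 49 members among them. Calls are those with a Benjamini-Hochberg adjusted p under 0.05. For 1 gene alone, exact permutation of 3 libraries against 3 (two-sided) has a smallest p of 0.1. Of 6 T cell marker genes listed, the 5 in the table summed to 422 to 430.2 FPKM with DMSO, 366 to 374 with EpA, 423 to 436 with fatostatin and 363 to 367 with both compounds. The Th9 markers *Il9*, *Irf4* and *Batf* summed to 283 to 290.0 FPKM with DMSO, 858 to 891 with EpA, 293 to 305 with fatostatin and 1053 to 1108 with both. B cell markers summed to 5.20 to 8.68 FPKM, the CD8 markers *Cd8a* and *Cd8b1* to 6.98 to 10.2, NK markers to 1.75 to 5.05, myeloid markers to 0.389 to 1.32 and erythroid markers to 0.320 to 2.04, and *Pax5*, *Ms4a1*, *Csf1r*, *Itgam*, *Klrb1c* and *Ncr1* were below 0.1 FPKM in every library. With *Klrb1c* and *Ncr1* that low, the NK sum is nearly all *Klrd1*. The T cell and NK sums were lower in all 6 libraries with EpA than in the 6 without it. The part of these shifts in the results below was not tested, and in RNA from mixed cells fewer cells of a type cannot be told apart from less RNA per cell.

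In vehicle-treated Th9 cells, genes of glycolysis were the most strongly expressed of the 3 routes. *Pgk1* (phosphoglycerate kinase, the first ATP-making step) had 974 ± 4.96 FPKM (SD, n = 3), *Ldha* (the main lactate dehydrogenase subunit) 813 ± 11.3, *Pkm* (pyruvate kinase, the last step) 620.5 ± 1.28 and *Eno1* (enolase) 515 ± 14.5. Of the 19 glycolytic genes, 9 stood at or above 100 FPKM, against 1 of the 9 pentose phosphate genes (*Prps1*) and 0 of the 21 TCA genes.
The median DMSO level was 43.0 FPKM over the glycolytic genes, 31.6 over the pentose phosphate genes and 26.9 over the pyruvate and TCA genes. The highest TCA gene was *Mdh2* (mitochondrial malate dehydrogenase, 99.8 ± 1.08 FPKM), followed by its cytosolic counterpart *Mdh1* (95.8 ± 1.18) and by *Cs* (citrate synthase, 72.3 ± 1.03). At the low end stood *Eno2* (the neuronal enolase) with 0.685 ± 0.0999 FPKM, *Pcx* (pyruvate carboxylase) with 4.16 ± 0.371 and *Idh1* (cytosolic isocitrate dehydrogenase) with 6.02 ± 0.758. These levels rest on the length of all exons of a gene. *Gapdh*, which had 182 ± 40.5 FPKM over 4133 exon bases, comes to 531 on the 1420 bases of its principal transcript, and *Gpi1* moves from 123 ± 1.43 to 275. Of the TCA genes, *Mdh2* comes to 244, *Cs* to 143 and *Mdh1* to 116, and of the pentose phosphate genes *Tkt* (transketolase) to 167, *Pgd* to 133 and *Taldo1* (transaldolase) to 127, all past 100 FPKM. On that scale *Ldha* (1524) and *Eno1* (1366) lead and *Pgk1* (1198) is the fourth. The order of the medians also depends on the length. By principal transcripts the median TCA gene (*Idh3a*, 56.7) stood above the median pentose phosphate gene (*Pgls*, 44.4), and the glycolytic median was the highest (*Pfkp*, 139).

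**Figure D1:**
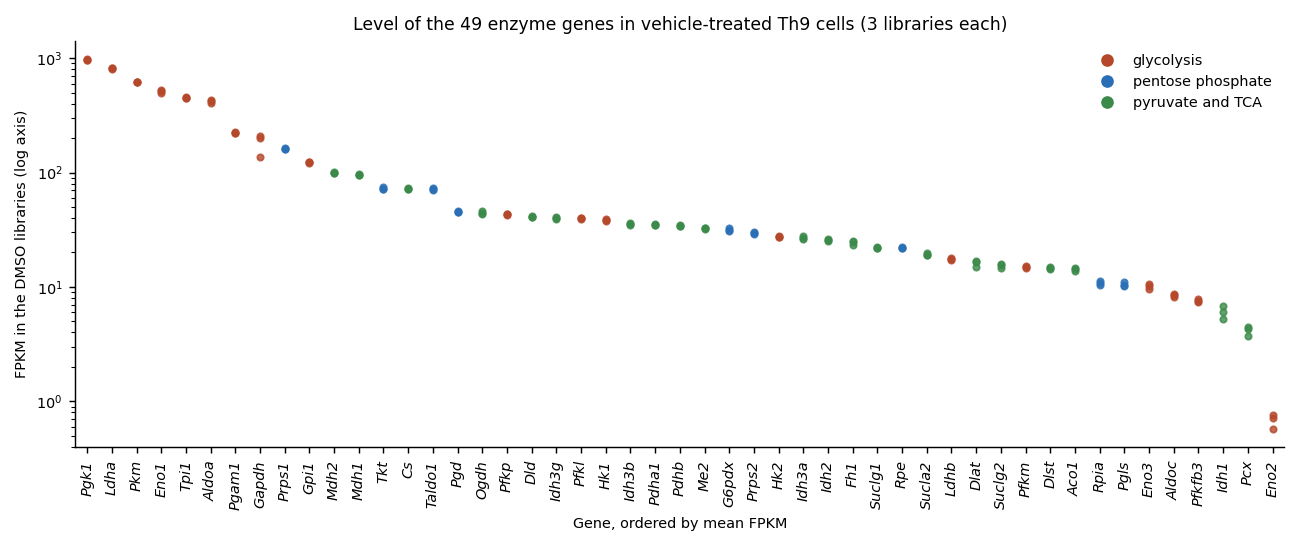
FPKM of each of the 49 genes in the 3 DMSO libraries (vertical log axis, 1 point per library), ordered from the highest to the lowest mean and coloured by pathway. Glycolytic genes hold the first 8 places, from *Pgk1* (974 FPKM) to *Gapdh* (182 FPKM), and the last place (*Eno2*, 0.685 FPKM).

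Most steps with several isoenzymes were carried by 1 or 2 of them. *Aldoa* (the main aldolase) stood 49.3 times above *Aldoc* in the DMSO libraries, *Ldha* 46.3 times above *Ldhb* (the heart-type subunit), and *Prps1* 5.43 times above *Prps2*, its close relative in phosphoribosyl pyrophosphate synthesis. The level of *Eno3* (muscle enolase) was 0.0196 of that of *Eno1*. For *Hk1* and *Hk2*, the hexokinases that trap glucose in the cell, the ratio in FPKM was 1.40 ± 0.00432, for *Pfkp* over *Pfkl*, the platelet and liver subunits of phosphofructokinase, 1.08 ± 0.00448, and for the muscle subunit *Pfkm* over *Pfkl* 0.375 ± 0.00858 (SD, n = 3). These ratios depend on the length used. By principal transcripts, *Hk1* over *Hk2* was 2.86, *Pfkp* over *Pfkl* 1.96, *Pfkm* over *Pfkl* 0.243, *Aldoa* over *Aldoc* 81.1, *Ldha* over *Ldhb* 72.1, *Prps1* over *Prps2* 5.26, *Eno3* over *Eno1* 0.00821 and *Mdh1* over *Mdh2* 0.475.

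Promoter sequence from RefSeq (GRCm38.p6) is shown for 5 members, *Hk2*, *Pgam1* and *Ldha*, which were higher with EpA, and *Prps1* and *Ldhb*, which were higher with fatostatin. Each line gives the 250 bases before the annotated start, 5′ to 3′ on the strand of the gene. Capitals mark CACGTG (the E-box) and ACGTG on either strand (the core of the hypoxia response element, which also lies within every E-box). For *Ldha*, which has 2 windows, the one with more matches is shown.
*Hk2* (chr6:82774455-82774704, minus strand): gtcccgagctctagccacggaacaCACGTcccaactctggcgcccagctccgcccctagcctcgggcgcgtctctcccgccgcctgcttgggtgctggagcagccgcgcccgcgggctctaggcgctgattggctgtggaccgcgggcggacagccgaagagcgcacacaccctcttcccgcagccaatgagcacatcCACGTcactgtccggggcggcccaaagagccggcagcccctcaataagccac
*Pgam1* (chr19:41911621-41911870, plus strand): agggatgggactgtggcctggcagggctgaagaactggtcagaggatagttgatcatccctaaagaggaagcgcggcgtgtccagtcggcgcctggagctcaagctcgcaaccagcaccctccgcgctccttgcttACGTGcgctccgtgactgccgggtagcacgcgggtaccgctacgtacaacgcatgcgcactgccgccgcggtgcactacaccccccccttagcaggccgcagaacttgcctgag
*Ldha* (chr7:46845554-46845803, plus strand): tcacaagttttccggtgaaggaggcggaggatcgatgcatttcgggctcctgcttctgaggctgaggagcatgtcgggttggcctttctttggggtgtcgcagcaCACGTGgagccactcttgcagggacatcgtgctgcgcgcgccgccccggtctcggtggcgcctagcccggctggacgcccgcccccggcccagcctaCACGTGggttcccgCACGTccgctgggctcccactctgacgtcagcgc
*Prps1* (chrX:140456353-140456602, plus strand): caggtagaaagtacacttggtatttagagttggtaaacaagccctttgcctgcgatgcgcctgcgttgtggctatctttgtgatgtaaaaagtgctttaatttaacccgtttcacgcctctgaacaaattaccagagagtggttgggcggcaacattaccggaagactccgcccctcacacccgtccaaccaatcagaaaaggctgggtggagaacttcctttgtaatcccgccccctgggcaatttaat
*Ldhb* (chr6:142507958-142508207, minus strand): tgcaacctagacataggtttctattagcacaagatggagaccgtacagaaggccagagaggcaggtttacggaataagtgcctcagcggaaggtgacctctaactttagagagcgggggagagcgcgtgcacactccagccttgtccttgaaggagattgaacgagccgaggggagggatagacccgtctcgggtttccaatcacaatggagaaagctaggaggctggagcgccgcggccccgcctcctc

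The *Hk2* window held 2 copies of ACGTG, the *Pgam1* window 1, and the *Ldha* window 5, of which 4 lie within its 2 E-boxes, while the *Prps1* and *Ldhb* windows held neither motif. RefSeq windows of 300 bases (250 before and 50 after the start) were found for 47 of the 49 members, with 67 windows in all. ACGTG on either strand was found in 45.2% of the 31 windows of glycolytic genes, 10.0% of the 10 windows of pentose phosphate genes, 38.5% of the 26 windows of TCA genes and 19.6% of all 32851 windows of the table. Windows of 1 gene can overlap, and 6 of the 10 TCA windows with a match belong to *Ogdh*. CACGTG was in 3, 0 and 4 windows of the 3 routes and in 7.15% of all windows. The sterol response element TCACNCCAC was in 1 window each of *Aldoc* and *Pkm* and in 1.24% of all windows. The 5 printed windows do not stand for the other members. *Tpi1*, *Pfkl*, *Eno1* and *Dlst*, which rose with EpA, had no ACGTG in any window, *Pgk1*, which rose with both EpA and fatostatin, had 2, and *Aldoc*, *Ogdh* and *Mdh1*, which fell with EpA, and *Pfkm*, which was not called with it, had a match in at least 1 window. Letters in a window are a description and show no binding.

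With EpA, most glycolytic and TCA genes were somewhat higher than with DMSO, led by *Hk2*, *Pfkfb3* and *Pgam1*. Of the 49 members, 28 rose and 3 fell, where 14.3% of all genes tested were higher and 13.1% lower. By route, 11 of 19 glycolytic genes rose and 1 fell, 3 of 9 pentose phosphate genes rose and 0 fell (0 also at an unadjusted limma p below 0.05 and by voom of limma on the recovered reads), and 14 of 21 pyruvate and TCA genes rose and 2 fell. The median log2 fold change was 0.12 in glycolysis, 0.05 in the pentose phosphate pathway and 0.11 in the TCA group, against 0.0023 over all genes tested, and the 3 routes were not tested against each other. The glycolysis median was 0.076 without the DMSO 3 library, and the pentose phosphate median was 0.029 without EpA 2 and 0.073 without EpA 1. The changes were small. No member reached a 1.5-fold change, which 3.38% of all genes tested did in either direction with a call. Members were measured more tightly than most genes, with a median SE of 0.0289 on the log2 scale against 0.0640 over all genes tested. Among the 10564 tested genes at or above the level of the lowest member, 1809 were called higher and 1654 lower.

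**Figure D2:**
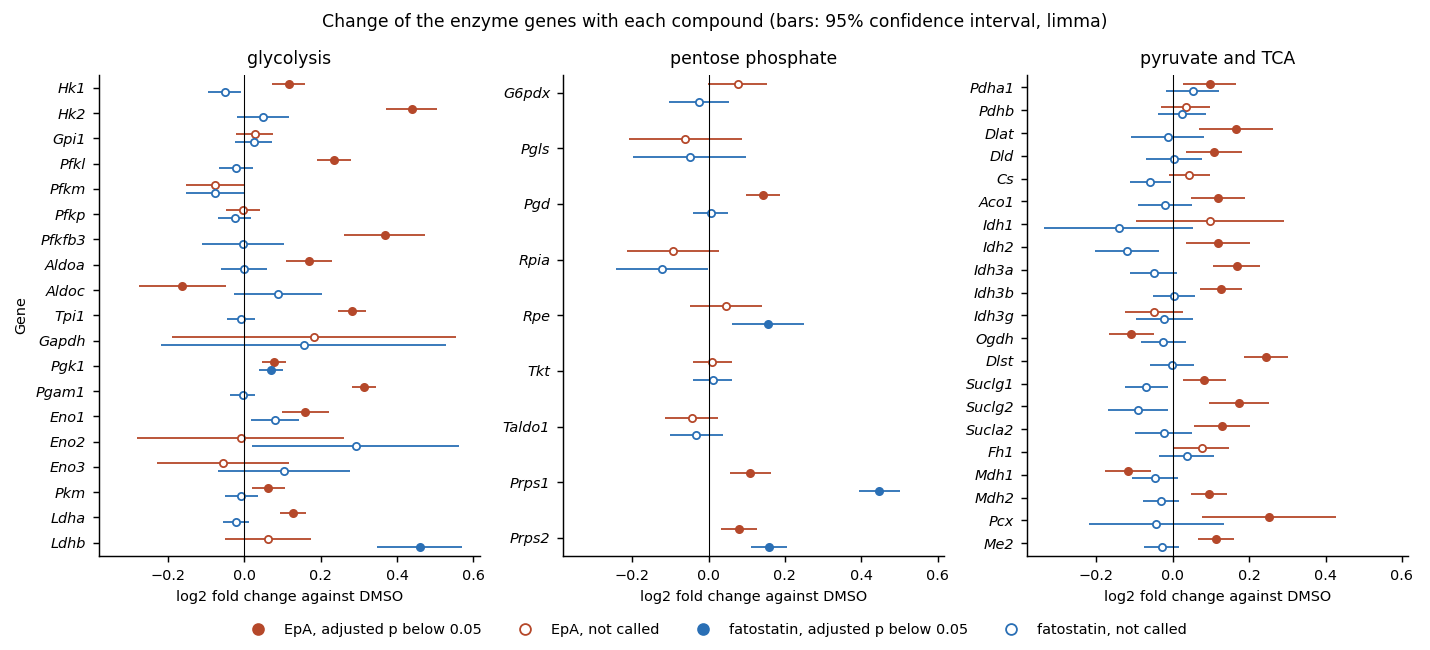
log2 fold change of each of the 49 genes (horizontal axis) with EpA (red) and with fatostatin (blue) against DMSO, in 3 panels by pathway, with limma's 95% confidence interval as a bar. Filled points passed an adjusted p of 0.05, which 31 members did with EpA and 5 with fatostatin.

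Among the genes of the ATP-consuming steps of glycolysis, *Hk2* (ENSMUSG00000000628, chr6:82725025-82774454, minus strand) moved most. It had 27.3, 27.2 and 28.0 FPKM with DMSO, 37.6, 37.6 and 36.7 with EpA, 29.7, 28.4 and 27.3 with fatostatin and 45.0, 42.4 and 43.8 with both compounds. All 3 EpA libraries were above all 3 DMSO libraries, and the rise was 1.35-fold (log2 fold change 0.44 with an SE of 0.0309, adjusted p = 2.02e-06 by limma). *Hk1*, the more constant hexokinase, had 38.3, 38.0 and 39.1 FPKM with DMSO, 42.2, 40.9 and 41.9 with EpA, 36.6, 36.9 and 37.7 with fatostatin and 43.0, 43.4 and 42.7 with both compounds, a rise of 8.38% with EpA (log2 fold change 0.12 with an SE of 0.0201, adjusted p = 0.00132 by limma). The ratio of *Hk1* to *Hk2* within a library was 1.39 to 1.40 with DMSO and 1.09 to 1.14 with EpA.

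*Pfkfb3* (ENSMUSG00000026773, chr2:11471433-11554077, minus strand) makes fructose 2,6-bisphosphate, the activator of phosphofructokinase. It had 7.42, 7.91 and 7.54 FPKM with DMSO, 10.5, 10.1 and 9.03 with EpA, 7.62, 7.51 and 7.69 with fatostatin and 10.6, 10.5 and 10.5 with both compounds. Every library with EpA was above every library without it, and against DMSO the rise was 1.29-fold (log2 fold change 0.37 with an SE of 0.0484, adjusted p = 1.98e-04 by limma). Of the phosphofructokinase subunits, *Pfkl* alone passed the test, with 39.6, 39.8 and 39.7 FPKM with DMSO, 47.1, 47.2 and 45.9 with EpA, 38.2, 39.9 and 39.3 with fatostatin and 47.0, 47.9 and 48.0 with both compounds (log2 fold change 0.23 with an SE of 0.0201, adjusted p = 8.08e-06 by limma for EpA against DMSO). *Pfkp* had 42.8, 43.1 and 43.2 FPKM with DMSO, 42.7, 43.2 and 42.9 with EpA, 43.1, 41.9 and 41.8 with fatostatin and 44.7, 43.1 and 43.2 with both compounds, and these groups overlapped (-0.0036, limma adjusted p = 0.924, interval -0.05 to 0.04). For *Pfkm* the values were 14.9, 14.5 and 15.2 FPKM with DMSO, 14.1, 14.6 and 13.7 with EpA, 13.7, 13.9 and 14.7 with fatostatin and 13.7, 13.1 and 13.3 with both compounds, with overlap between EpA and DMSO (-0.08, limma adjusted p = 0.141). The difference between subunits was not tested.

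*Tpi1* (triosephosphate isomerase) was 21.6% higher with EpA (log2 fold change 0.28 with an SE of 0.0168, adjusted p = 5.84e-07 by limma). *Aldoa* had 424, 406 and 429 FPKM with DMSO, 474, 463 and 479 with EpA, 404, 428 and 426 with fatostatin and 467, 478 and 483 with both compounds, and it rose with EpA (log2 fold change 0.17 with an SE of 0.0274, adjusted p = 8.21e-04 by limma). *Aldoc*, the brain aldolase, went the other way, with 8.24, 8.57 and 8.74 FPKM with DMSO, 8.16, 7.15 and 7.51 with EpA, 9.16, 9.19 and 8.83 with fatostatin and 7.62, 8.48 and 8.16 with both compounds, a fall with EpA (log2 fold change -0.16, limma adjusted p = 0.0385). The groups did not overlap, by a narrow margin, and the call was made under 12 of 22 alternative settings. *Gpi1* (glucose 6-phosphate isomerase) was level with DMSO within an interval of -0.02 to 0.08.

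In the later steps, *Pgam1* (ENSMUSG00000011752, chr19:41911923-41918660, plus strand), the phosphoglycerate mutase, had the smallest adjusted p of the 49. Its values were 220.5, 223 and 226 FPKM with DMSO, 275, 278 and 279.6 with EpA, 222, 224 and 222 with fatostatin and 279, 279 and 275 with both compounds. All 6 libraries with EpA lay above all 6 without it, and against DMSO the rise was 1.24-fold (log2 fold change 0.31 with an SE of 0.0147, adjusted p = 8.90e-08 by limma). *Eno1* had 518, 499 and 527 FPKM with DMSO, 569, 564 and 593 with EpA, 537, 552 and 543 with fatostatin and 588, 602 and 624 with both compounds, and it rose with EpA (log2 fold change 0.16 with an SE of 0.0283, adjusted p = 0.00149 by limma), while *Eno3*, with 10.6, 9.51 and 10.2 FPKM with DMSO, 10.6, 10.1 and 8.50 with EpA, 10.2, 11.1 and 11.3 with fatostatin and 10.5, 10.8 and 11.8 with both compounds, overlapped between EpA and DMSO (-0.06, limma adjusted p = 0.655). *Eno2* had 0.720, 0.572 and 0.763 FPKM with DMSO, 0.582, 0.779 and 0.678 with EpA, 0.920, 0.805 and 0.845 with fatostatin and 1.08, 1.11 and 1.13 with both compounds, and EpA and DMSO overlapped as well (-0.0093, limma adjusted p = 0.969). *Pgk1* rose by 5.47% and *Pkm* by 4.48% with EpA (limma adjusted p = 0.00214 and 0.0337), and the call of *Pkm* held in 14 of 22 alternatives.

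*Ldha* had 815, 801 and 823 FPKM with DMSO, 879, 890.2 and 895 with EpA, 798, 797 and 806 with fatostatin and 901, 903 and 913 with both compounds. The 6 libraries with EpA ran from 879 to 913 FPKM and the 6 without it from 797 to 823, and the rise against DMSO was 9.20% (log2 fold change 0.13 with an SE of 0.0155, adjusted p = 1.13e-04 by limma). *Gapdh* gave no call in any comparison. Its libraries spread from 136 (DMSO 3) to 225 FPKM (both compounds 2), with 148 in both compounds 1, and its SE of 0.170 was the highest of the 49. Without the DMSO 3 library its log2 fold change with EpA was -0.02 in place of 0.18. Of the 75-base stretches of *Gapdh* transcripts, 22.6% also occur in transcripts of other genes, 121 in number. For *Pgk1* this share was 52.8%, for *Pgam1* 34.9%, for *Eno1* 23.0%, for *Pkm* 17.8% and for *Ldhb* 12.6%, so that reads of these genes could be split with a copy, and it was 0% for *Hk2*, *Pfkfb3* and *Pfkl*.

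**Figure D3:**
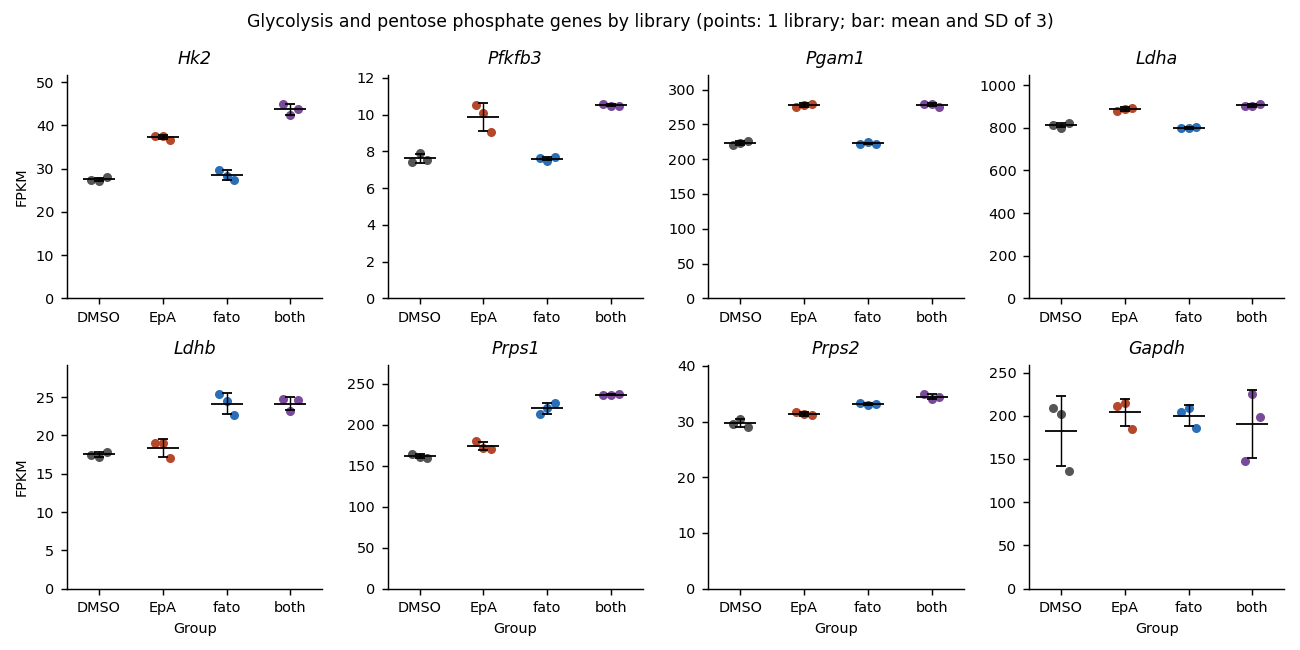
FPKM in each library (vertical axis from 0, 1 panel per gene) for *Hk2*, *Pfkfb3*, *Pgam1*, *Ldha*, *Ldhb*, *Prps1*, *Prps2* and *Gapdh* in the 4 groups (fato, fatostatin; both, EpA and fatostatin), with the mean and SD of 3 libraries as a bar. *Hk2*, *Pfkfb3*, *Pgam1* and *Ldha* are high in the EpA and combined groups, *Ldhb* and *Prps1* in the fatostatin and combined groups, and *Gapdh* has 1 low library each with DMSO (136 FPKM) and with both compounds (148 FPKM).

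In the pentose phosphate pathway, *Pgd*, *Prps1* and *Prps2* rose with EpA. *Pgd* (ENSMUSG00000028961, chr4:149149991-149166771, minus strand), 6-phosphogluconate dehydrogenase of the oxidative branch, had 45.6, 45.6 and 46.0 FPKM with DMSO, 50.0, 51.0 and 50.5 with EpA, 45.3, 47.1 and 45.3 with fatostatin and 51.0, 52.2 and 52.8 with both compounds. The EpA values lay above the DMSO values without overlap, a rise of 10.5% (log2 fold change 0.14 with an SE of 0.0204, adjusted p = 3.40e-04 by limma). *G6pdx*, the entry enzyme, was not called (0.08, limma adjusted p = 0.140), and *Pgls*, the lactonase between them, was not either (-0.06, limma adjusted p = 0.562). None of the 4 genes of the nonoxidative branch (*Rpia*, *Rpe*, *Tkt* and *Taldo1*) was called, and their log2 fold changes ran from -0.09 to 0.05, with 0 at an unadjusted limma p below 0.05 and 0 called by voom.

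*Prps1* (ENSMUSG00000031432, chrX:140456613-140476140, plus strand) had 164, 161 and 159 FPKM with DMSO, 179.5, 172 and 171 with EpA, 214, 219.8 and 226 with fatostatin and 236, 237 and 238 with both compounds, and *Prps2* (ENSMUSG00000025742, chrX:167346322-167382749, minus strand) had 29.5, 30.5 and 29.0 FPKM with DMSO, 31.7, 31.4 and 31.1 with EpA, 33.2, 33.0 and 33.2 with fatostatin and 35.0, 34.0 and 34.4 with both compounds. With EpA alone both rose a little, by 7.87% (log2 fold change 0.11 with an SE of 0.0244, adjusted p = 0.00624 by limma) and by 5.72% (log2 fold change 0.08 with an SE of 0.0213, adjusted p = 0.0161 by limma). The groups did not overlap for either gene. The call of *Prps2* was lost under 4 of 22 alternatives, with adjusted p up to 0.067.

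Of the 21 genes of pyruvate entry and the TCA cycle, 14 rose with EpA, by 5.91% to 19.1%, and 2 fell (*Ogdh* and *Mdh1*). Among all genes tested, 14.3% were higher and 13.1% lower. *Pcx* (ENSMUSG00000024892, chr19:4510472-4621752, plus strand), which makes oxaloacetate from pyruvate, had 3.75, 4.48 and 4.24 FPKM with DMSO, 4.79, 5.27 and 4.83 with EpA, 3.56, 4.37 and 4.19 with fatostatin and 5.51, 5.45 and 5.47 with both compounds. The EpA libraries lay above the DMSO libraries, with a fold of 1.19 (log2 fold change 0.25 with an SE of 0.0799, adjusted p = 0.0363 by limma), and the call was lost under 8 of 22 alternatives, with adjusted p up to 0.133. *Me2*, the mitochondrial malic enzyme, rose by 8.15%. Of the pyruvate dehydrogenase complex, *Dlat* (the E2 core, 0.17, limma adjusted p = 0.0154, called under 20 of 22 alternatives), *Dld* (the E3 subunit, 0.11, limma adjusted p = 0.0316, called under 16 of 22 alternatives) and *Pdha1* (E1 alpha, 0.10, limma adjusted p = 0.0428, called under 9 of 22 alternatives) rose, and *Pdhb* (E1 beta) had a log2 fold change of 0.03, limma adjusted p = 0.443.

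Between citrate and 2-oxoglutarate, 4 of 7 genes rose and 0 fell, where 14.3% of all genes tested were higher and 13.1% lower. The 4 genes that rose were *Aco1* (the cytosolic aconitase, 0.12, called under 20 of 22 alternatives), *Idh2* (0.12), *Idh3a* (0.17) and *Idh3b* (0.13) on the log2 scale. The third subunit of the NAD-dependent isocitrate dehydrogenase, *Idh3g*, was -0.05 (limma adjusted p = 0.329). *Idh2*, the mitochondrial NADP-dependent enzyme, had 25.4, 25.8 and 26.2 FPKM with DMSO, 27.5, 29.3 and 27.3 with EpA, 24.2, 24.4 and 22.7 with fatostatin and 25.9, 27.9 and 27.6 with both compounds, without overlap between EpA and DMSO (limma adjusted p = 0.0396, called under 15 of 22 alternatives, with adjusted p up to 0.146). *Idh1* had 5.26, 6.02 and 6.78 FPKM with DMSO, 6.90, 6.31 and 6.06 with EpA, 5.71, 4.98 and 5.60 with fatostatin and 5.79, 5.88 and 5.29 with both compounds, spread widely within groups, and was not called (interval -0.10 to 0.29). *Cs*, which starts the cycle, was 0.04 (limma adjusted p = 0.221).

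The E1 and E2 subunits of the 2-oxoglutarate dehydrogenase complex moved in opposite directions. *Dlst* (ENSMUSG00000004789, chr12:85110833-85134845, plus strand), the E2 core, had 14.4, 14.6 and 14.9 FPKM with DMSO, 17.6, 17.1 and 17.4 with EpA, 14.5, 14.7 and 14.6 with fatostatin and 17.9, 17.8 and 17.0 with both compounds. It rose by 18.5% with EpA (log2 fold change 0.24 with an SE of 0.0260, adjusted p = 4.03e-05 by limma), and the 6 libraries with EpA lay above the 6 without it. *Ogdh*, the E1 subunit that defines the complex, fell by 7.23% (log2 fold change -0.11 with an SE of 0.0269, adjusted p = 0.0113 by limma), from 44.5 ± 1.16 to 41.3 ± 0.556 FPKM (SD, n = 3). Both calls held under all 22 alternatives.

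*Suclg2* (ENSMUSG00000061838, chr6:95473009-95718800, minus strand), the GDP-forming beta subunit of succinyl-CoA synthetase, had 15.5, 14.7 and 15.8 FPKM with DMSO, 17.2, 17.9 and 16.8 with EpA, 14.3, 14.8 and 14.0 with fatostatin and 16.3, 17.0 and 16.6 with both compounds. It rose by 12.7% with EpA, with no overlap (log2 fold change 0.17 with an SE of 0.0357, adjusted p = 0.00397 by limma). Its ADP-forming counterpart *Sucla2* had 18.9, 19.8 and 18.8 FPKM with DMSO, 21.7, 20.1 and 21.3 with EpA, 18.3, 18.9 and 19.4 with fatostatin and 20.2, 20.2 and 19.8 with both compounds and rose by 9.41% (limma adjusted p = 0.0139), and the shared alpha subunit *Suclg1* by 5.91% (limma adjusted p = 0.0324). The calls of *Sucla2* and *Suclg1* were made under 20 and 16 of 22 alternatives, with adjusted p up to 0.0593 and 0.120 (limma). *Fh1* (fumarase) was 0.08 on the log2 scale and not called (limma adjusted p = 0.116).

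The malate dehydrogenases parted. *Mdh1*, the cytosolic enzyme, had 94.6, 96.1 and 96.9 FPKM with DMSO, 84.7, 88.6 and 92.0 with EpA, 91.3, 94.7 and 92.2 with fatostatin and 85.6, 85.8 and 87.8 with both compounds, and it fell by 7.78% with EpA (log2 fold change -0.12 with an SE of 0.0276, adjusted p = 0.00855 by limma). *Mdh2*, the mitochondrial enzyme, had 99.3, 99.1 and 101 FPKM with DMSO, 104, 107 and 109 with EpA, 95.4, 97.4 and 100.2 with fatostatin and 106, 107 and 109 with both compounds, and it rose by 6.84% (log2 fold change 0.10 with an SE of 0.0213, adjusted p = 0.00622 by limma). The EpA and DMSO values did not overlap in either gene, and the ratio of *Mdh1* to *Mdh2* was 0.953 to 0.970 with DMSO and 0.811 to 0.847 with EpA. These ratios are given as a description, without a test.

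**Figure D4:**
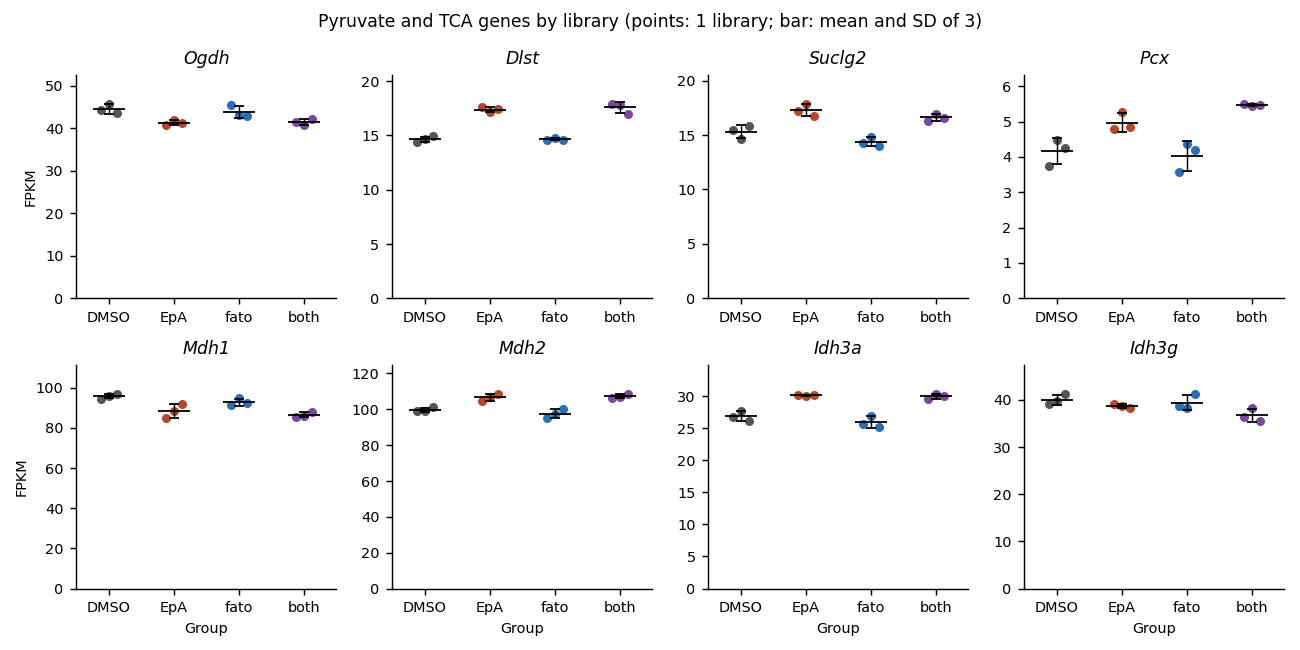
FPKM in each library (vertical axis from 0, 1 panel per gene) for 8 genes of pyruvate entry and the TCA cycle in the 4 groups (fato, fatostatin; both, EpA and fatostatin), with the mean and SD of 3 libraries as a bar. *Dlst*, *Suclg2*, *Pcx*, *Mdh2* and *Idh3a* are higher with EpA than with DMSO, *Ogdh* and *Mdh1* are lower, and *Idh3g* was not called.

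Fatostatin left most of the 3 routes near the DMSO level and raised *Ldhb*, *Pgk1*, *Rpe*, *Prps1* and *Prps2*. Of the 49 members, 5 rose, where 7.69% of all genes tested were higher, and 0 fell, where 6.31% were lower. At an unadjusted limma p below 0.05, 6 members were lower (*Hk1*, *Rpia*, *Cs*, *Idh2*, *Suclg1* and *Suclg2*), and voom called 1 lower, *Idh2*, as did limma without EpA 2 or without replicate 1 of both compounds, which share the fit. In either direction, 13 of the 49 members and 3679 of the 13733 genes tested were at an unadjusted p below 0.05, which are near the same share. The median log2 fold change was -0.0010 in glycolysis, 0.0054 in the pentose phosphate pathway and -0.02 in the TCA group, against 0.0053 over all genes tested. No member reached 1.5-fold with a call, against 1.86% of all genes tested in either direction.

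*Ldhb* (ENSMUSG00000030246, chr6:142490249-142507957, minus strand) had 17.5, 17.2 and 17.9 FPKM with DMSO, 19.0, 19.0 and 17.0 with EpA, 25.4, 24.5 and 22.6 with fatostatin and 24.8, 23.2 and 24.6 with both compounds. All 6 libraries with fatostatin, from 22.6 to 25.4 FPKM, lay above all 6 without it, from 17.0 to 19.0. Against DMSO the rise was 1.37-fold (log2 fold change 0.46 with an SE of 0.0509, adjusted p = 1.09e-04 by limma). *Ldha* was not called with fatostatin (-0.02, limma adjusted p = 0.398, interval -0.06 to 0.01), and the ratio of *Ldha* to *Ldhb* went from 46.0 to 46.6 with DMSO to 31.4 to 35.6 with fatostatin.

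*Prps1*, whose values are given above, rose 1.36-fold with fatostatin (log2 fold change 0.45 with an SE of 0.0244, adjusted p = 3.65e-07 by limma), and *Prps2* 1.12-fold (log2 fold change 0.16 with an SE of 0.0213, adjusted p = 4.50e-04 by limma). The fatostatin libraries of *Prps1* stood above every library without fatostatin. *Rpe* (ENSMUSG00000026005, chr1:66700831-66719805, plus strand), ribulose 5-phosphate epimerase of the nonoxidative branch, had 21.8, 22.5 and 21.7 FPKM with DMSO, 21.7, 23.3 and 23.2 with EpA, 23.8, 24.2 and 25.5 with fatostatin and 27.5, 25.9 and 24.6 with both compounds. It rose by 11.4% (log2 fold change 0.16 with an SE of 0.0431, adjusted p = 0.0327 by limma), without overlap between the groups, and the call was lost under 7 of 22 alternatives, with adjusted p up to 0.115. *Rpe* shares 558 exon bases with *Kansl1l* on the opposite strand, and with no strand setting stated the reads of both cannot be told apart there. *Pgk1* (ENSMUSG00000062070, chrX:106187100-106203699, plus strand) had 969.8, 979.6 and 974 FPKM with DMSO, 1025, 1025 and 1033 with EpA, 1019, 1018 and 1033 with fatostatin and 1076, 1094 and 1074 with both compounds, a rise of 5.01% with no overlap (log2 fold change 0.07 with an SE of 0.0143, adjusted p = 0.00694 by limma).

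Several genes that moved most with EpA were near the DMSO level with fatostatin alone. The log2 fold change with fatostatin was 0.05 for *Hk2* (interval -0.02 to 0.12), -0.0033 for *Pfkfb3* (-0.11 to 0.10), -0.0076 for *Tpi1* (-0.04 to 0.03), -0.0042 for *Pgam1* (-0.04 to 0.03) and -0.0013 for *Dlst* (-0.06 to 0.06). For *Pcx* it was -0.04 with a wide interval of -0.22 to 0.13. Of the 21 pyruvate and TCA genes, 16 had a negative value with fatostatin and 5 a positive one, where 6606 of the 13733 genes tested were negative. None of the 21 was called by limma, and the 4 at an unadjusted p below 0.05 are a smaller share than the 3679 of all genes tested. The lowest values were those of *Idh1* (-0.14, limma adjusted p = 0.348), *Idh2* (-0.12, limma adjusted p = 0.0607) and *Suclg2* (-0.09, limma adjusted p = 0.122).

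With both compounds, the members that moved most with either compound alone, such as *Hk2*, *Pfkfb3*, *Prps1* and *Ldhb*, were higher than with DMSO. In all, 30 members rose, where 19.7% of all genes tested were higher, and 5 fell, where 15.8% were lower. Without DMSO 2 or DMSO 3, 3 fell in place of 5. This comparison shares its DMSO libraries with the comparisons above. In the TCA group 11 genes rose and 3 fell, with a median log2 fold change of 0.07, beside 14, 2 and 0.11 with EpA alone. *Fh1* was among the 11 and was not called with EpA alone. *Idh2* (0.07, limma adjusted p = 0.183), *Idh3b* (0.06, limma adjusted p = 0.0745), *Suclg1* (0.02, limma adjusted p = 0.542) and *Sucla2* (0.06, limma adjusted p = 0.176) were called higher with EpA alone and not called with both compounds. Between both compounds and EpA alone, their log2 fold changes ran from -0.07 to -0.05, and none passed the test. *Hk2* rose 1.59-fold (log2 fold change 0.67 with an SE of 0.0309, adjusted p = 3.40e-08 by limma) and *Eno2* 1.55-fold (log2 fold change 0.63 with an SE of 0.123, adjusted p = 0.00203 by limma), and these were the 2 members past 1.5-fold, against 5.64% of all genes tested in either direction. *Eno2* rests on 109 to 218 reads per library, and its log2 fold change was between 0.33 and 0.70 over the alternatives. *Pfkfb3* rose 1.38-fold (log2 fold change 0.46 with an SE of 0.0484, adjusted p = 2.15e-05 by limma).

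Of the pentose phosphate genes, *Prps1* (log2 fold change 0.55 with an SE of 0.0244, adjusted p = 2.50e-08 by limma), *Rpe* (log2 fold change 0.24 with an SE of 0.0431, adjusted p = 0.00114 by limma) and *Prps2* (log2 fold change 0.21 with an SE of 0.0213, adjusted p = 1.40e-05 by limma) moved most with both compounds. *G6pdx* also rose (0.15, limma adjusted p = 0.00589), and *Rpia*, ribose 5-phosphate isomerase, fell (-0.17, limma adjusted p = 0.0294). *G6pdx* shares 418 exon bases with *Ikbkg* on the opposite strand. In the TCA group, *Pcx* (log2 fold change 0.39 with an SE of 0.0799, adjusted p = 0.00260 by limma), *Dlst* (log2 fold change 0.26 with an SE of 0.0260, adjusted p = 1.37e-05 by limma) and *Aco1* (log2 fold change 0.19 with an SE of 0.0321, adjusted p = 7.53e-04 by limma) moved most. The 5 members that fell were *Pfkm*, *Rpia*, *Idh3g*, *Ogdh* and *Mdh1*, with log2 fold changes from -0.17 to -0.10.

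The change that EpA made on top of fatostatin can be set beside its change on DMSO, since these comparisons share no library. They come from 1 fit with 1 estimate of the spread for each gene, so their calls are not independent. Against fatostatin alone, both compounds gave 26 members higher, where 16.2% of all genes tested were higher, and 3 lower, where 13.3% were lower. The count of 3 was 1 without fatostatin 1 or 2 or without replicate 1 or 3 of both compounds. Of the 31 members called with EpA against DMSO, 26 (83.9%) were called in the same direction here, which is 89.7% of the 29 called here, and 0 were called in the opposite direction. Over all genes tested, the same held for 73.7% of 3759 and 68.4% of 4051 genes. All 12 glycolytic genes called in the one comparison were called in the other, and of the TCA genes 12 of 16 and 12 of 14. The strongest were *Hk2* (log2 fold change 0.62 with an SE of 0.0309, adjusted p = 1.21e-07 by limma), *Pfkfb3* (log2 fold change 0.46 with an SE of 0.0484, adjusted p = 3.11e-05 by limma) and *Tpi1* (log2 fold change 0.36 with an SE of 0.0168, adjusted p = 7.64e-08 by limma) in glycolysis. In the pentose phosphate pathway they were *Pgd* (log2 fold change 0.18 with an SE of 0.0204, adjusted p = 5.53e-05 by limma), *G6pdx* (log2 fold change 0.18 with an SE of 0.0354, adjusted p = 0.00293 by limma) and *Prps1* (log2 fold change 0.11 with an SE of 0.0244, adjusted p = 0.00659 by limma). In the TCA group *Pcx* (log2 fold change 0.43 with an SE of 0.0799, adjusted p = 0.00177 by limma), *Dlst* (log2 fold change 0.26 with an SE of 0.0260, adjusted p = 2.06e-05 by limma) and *Aco1* (log2 fold change 0.21 with an SE of 0.0321, adjusted p = 4.95e-04 by limma) led.

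Fatostatin on top of EpA likewise shares no library with fatostatin against DMSO, but the estimate of the spread is again shared. Against EpA alone, both compounds gave 8 members higher, where 9.22% of all genes tested were higher, and 0 lower, where 6.79% were lower (4 members lower at an unadjusted limma p below 0.05, 0 by voom). All 5 members called with fatostatin alone were among the 8 (62.5%), while over all genes tested 66.5% of 1922 and 58.1% of 2199 were shared. The largest were *Eno2* (log2 fold change 0.64 with an SE of 0.123, adjusted p = 0.00457 by limma), *Ldhb* (log2 fold change 0.40 with an SE of 0.0509, adjusted p = 3.07e-04 by limma) and *Hk2* (log2 fold change 0.23 with an SE of 0.0309, adjusted p = 4.49e-04 by limma) in glycolysis. *Prps1* (log2 fold change 0.44 with an SE of 0.0244, adjusted p = 4.16e-07 by limma), *Rpe* (log2 fold change 0.19 with an SE of 0.0431, adjusted p = 0.0101 by limma) and *Prps2* (log2 fold change 0.13 with an SE of 0.0213, adjusted p = 0.00141 by limma) were the 3 called in the pentose phosphate pathway, and 0 of the 21 TCA genes were called, with 4 at an unadjusted limma p below 0.05, beside 3945 of the 13733 genes tested. *Ldhb* had 23.2 to 24.8 FPKM with both compounds and 22.6 to 25.4 with fatostatin alone, and these ranges overlapped.

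Whether the effect of EpA differed with and without fatostatin was tested by the difference between the 2 effects. No member was called, higher or lower, where 0.0364% of all genes tested were called higher and 0.00728% lower. At an unadjusted limma p below 0.05, 4 members were higher (*Hk1*, *Hk2*, *Tpi1* and *Ldha*) and 0 lower, where 1083 of all 13733 genes tested passed in either direction, a share near that of the members, and voom called 0. The largest of these was *Hk2*, whose effect of EpA was 0.44 on the log2 scale without fatostatin and 0.62 with it, a difference of 0.18 (interval 0.09 to 0.28, limma adjusted p = 0.328). For *Prps1* the difference was -0.0026 (interval -0.08 to 0.07) and for *Ldhb* -0.06 (-0.22 to 0.10).

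The isoenzyme ratios in FPKM are set side by side for the compounds. Another gene length scales a ratio alike in every library. The ratio of *Hk1* to *Hk2* was 1.40 ± 0.00432 with DMSO, 1.12 ± 0.0272 with EpA, 1.30 ± 0.0739 with fatostatin and 0.985 ± 0.0346 with both compounds (SD, n = 3). *Pfkp* over *Pfkl* was 0.918 ± 0.0137 with EpA, 1.08 ± 0.0413 with fatostatin and 0.917 ± 0.0302 with both. *Prps1* over *Prps2* was 5.54 ± 0.105 with EpA, 6.63 ± 0.198 with fatostatin and 6.87 ± 0.111 with both. The first 2 ratios were lower in the libraries with EpA, and the third was higher in the libraries with fatostatin. *Suclg2* over *Sucla2* (0.799 ± 0.0525 with DMSO and 0.824 ± 0.0576 with EpA) and *Idh1* over *Idh2* (0.233 ± 0.0261 and 0.229 ± 0.0189) overlapped between these groups.

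**Figure D5:**
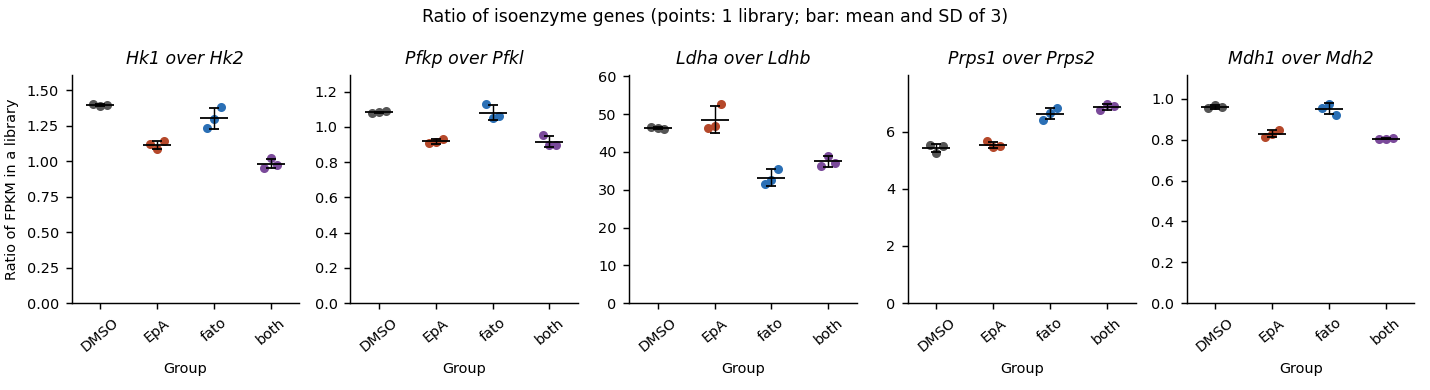
Ratio of the FPKM of 2 isoenzyme genes within each library (vertical axis from 0) in the 4 groups (fato, fatostatin; both, EpA and fatostatin), with the mean and SD of 3 libraries as a bar. *Hk1* over *Hk2*, *Pfkp* over *Pfkl* and *Mdh1* over *Mdh2* are lower with EpA, *Ldha* over *Ldhb* is lower with fatostatin (31.4 to 35.6) than with DMSO (46.0 to 46.6), and *Prps1* over *Prps2* is higher with fatostatin.

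By summed level, the 19 glycolytic genes made up 4532 ± 31.1 FPKM with DMSO, 4998 ± 21.3 with EpA, 4616 ± 47.1 with fatostatin and 5148 ± 73.8 with both compounds (SD, n = 3). The 9 pentose phosphate genes summed to 456 ± 1.12, 475 ± 2.44, 518 ± 10.4 and 546 ± 5.79 FPKM in the same order, most of it *Prps1* and the transketolase and transaldolase genes. The 21 pyruvate and TCA genes summed to 719.9 ± 2.97, 748 ± 8.84, 706 ± 4.41 and 739 ± 6.66 FPKM. The sums are led by a few abundant genes, and they carry no test.

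Other genes of these pathways were listed by 71 symbols outside the 49, of which *Idh3* matched no gene and 57 had enough signal to test. They gave 16 higher (28.1%) and 4 lower (7.02%) with EpA against DMSO, where all genes tested gave 14.3% and 13.1%. With fatostatin they gave 4 higher (7.02%) and 10 lower (17.5%), where all genes tested gave 7.69% and 6.31%. Of 10 transporters, *Slc2a1* (the glucose transporter GLUT1, 0.31, limma adjusted p = 8.76e-06), *Slc16a1* (0.18, limma adjusted p = 4.69e-04) and *Slc16a3* (0.36, limma adjusted p = 4.06e-06), which carry lactate, rose with EpA on the log2 scale. With fatostatin, *Slc2a3* (GLUT3) rose (0.20, limma adjusted p = 2.10e-04) and *Slc2a6* (-0.31, limma adjusted p = 0.00126) and the mitochondrial citrate carrier *Slc25a1* (-0.33, limma adjusted p = 0.00154) fell. *Tigar*, a phosphatase that acts against *Pfkfb3*, also rose with EpA (0.37, limma adjusted p = 1.54e-04). Among cycle genes outside the members, 1 of the 4 subunit genes of succinate dehydrogenase was called with EpA, *Sdhd* (0.11, limma adjusted p = 0.00953), while *Sdha* (-0.00091, limma adjusted p = 0.976), *Sdhb* (0.07, limma adjusted p = 0.0611) and *Sdhc* (-0.04, limma adjusted p = 0.494) were not. With fatostatin *Sdhb* fell (-0.18, limma adjusted p = 5.75e-04), and *Sdha* (-0.03, limma adjusted p = 0.332), *Sdhc* (-0.07, limma adjusted p = 0.244) and *Sdhd* (-0.04, limma adjusted p = 0.459) were not called. *Acly*, which splits exported citrate for lipid synthesis, rose with EpA (0.15, limma adjusted p = 0.00127) and fell with fatostatin (-0.09, limma adjusted p = 0.0286).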

How the data were processed

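Th9 libraries of 4 groups of 3 were analysed, grouped by the labels. Per the study's methods, the authors used Trim Galore for trimming, HISAT2 with the GRCm38 genome for alignment of the paired-end reads and featureCounts for counting, and deposited FPKM per gene. The annotation release and the strand setting are not given in the sources used here, so overlapping genes and near-identical copies can share reads. Exon overlaps longer than that of *Rpe* were those of *Pgls* (776 bases with *Fam129c*), *Pkm* (767 with *Gm49759*) and *Pfkp* (748 with *Pitrm1*). *Gpi1* (741 with *Gm26762*) and *Pdha1* (603 with *Map3k15*) had them too. Gene lengths from GENCODE gave whole reads (tolerance 0.05 reads) for nearly all values, and these recovered reads served for depth and for voom. Lines that repeated a gene were dropped.

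limma (version 3.58.1, R 4.3.3) was fitted with a mean-variance trend to log2(FPKM + 0.1), for 13733 genes that averaged 0.1 FPKM or more, with all 4 groups in 1 fit and Benjamini-Hochberg adjustment over all genes tested. Fold changes on this scale understate those of low genes. The procedure was tested on simulated data. Full statistics are given for the 3 called members of each route with the largest change and no overlap between groups, per comparison. Values per library are given for those of each compound alone against DMSO and for isoenzyme sets. The alternatives were other pseudocounts, minimum levels, scalings, fits without the trend, voom, a replicate block and leaving out each library. The members and lists were chosen with earlier results of these data known.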

Additional observations from a re-analysis of the deposited data

How the results depend on the processing

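Of 268 alternatives on counts and medians other than leaving out a library, 258 stayed near the values reported and 10 moved. With fatostatin, 1 member was lower in place of 0 (*Idh2*) with a minimum mean of 1 FPKM or with voom. With both compounds against EpA, 1 was lower in place of 0 under median ratio scaling, where the medians were 0.028 for pentose phosphate and -0.025 for TCA genes. With both against fatostatin, 1 was lower in place of 3 with no minimum, with no trend or with the replicate block, and the glycolysis median was 0.122 with a minimum mean of 1 FPKM. With both against DMSO the TCA median was 0.053 under median ratio scaling. The cause was not tested. Of 834 alternatives on 38 named gene results, 815 kept the side of the threshold, 19 lost it (*Pcx* 8 and *Prps2* 4 with EpA, *Rpe* 7 with fatostatin) and 0 reversed.

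Leaving out each library in turn gave 19 to 28 members higher with EpA, 19 without DMSO 3 or without EpA 1. It gave 0 to 1 lower with fatostatin, and with both compounds 3 to 5 lower against DMSO and 1 to 3 against fatostatin. With EpA the medians ran from 0.076 to 0.125 in glycolysis, 0.029 to 0.073 in the pentose phosphate pathway and 0.0997 to 0.116 in the TCA group, and with fatostatin from -0.037 to -0.02 in the TCA group. With both against DMSO they ran from 0.155 to 0.195, 0.131 to 0.177 and 0.057 to 0.089, and against EpA from 0.038 to 0.057, 0.032 to 0.065 and -0.028 to -0.0023. With both against fatostatin the glycolysis median ran from 0.129 to 0.171.

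Deviations of same-numbered libraries correlated at -0.047 to 0.074, and those of libraries with different numbers at -0.086 to 0.049. These ranges were taken over all genes tested, low ones included, and cannot exclude pairing, which the labels do not state. With the replicate block, 25 members were higher and 2 lower with EpA, 4 and 0 with fatostatin, 27 and 6 with both against DMSO, 8 and 0 against EpA, and 26 and 1 against fatostatin.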
